A study of Mus musculus with 9 samples.

Results

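The 10 genes described here mark T, natural killer (NK), and B lymphocytes in whole liver: Cd3d, Cd3e, Cd3g, Cd2, Cd8a, Nkg7, Gzma, Ccl5, Cd79a, and Cd79b. They were named by cell type and kept when their value was above 0 in at least 1 liver, which held for 10 of 10, out of 23183 gene symbols in each table. Liver RNA was sequenced from 9 male C57BL/6J mice at postnatal day 100, with 1 library per mouse and 3 mice per group. The ND group (mice 6, 7, and 9) ate a normal diet with 14% fat. The HFD group (mice 1, 2, and 3) ate a diet with 60% fat for 10 weeks. The PRF 50 group (mice 3, 9, and 10) ate the same 60% fat diet for 10 weeks and was given PRF, a polymethoxyflavone-rich fraction of Citrus sunki leaves, by mouth at 50 mg/kg of body weight per day during the last 5 weeks. Mouse numbers name an animal within its group only.

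T cells recognize antigen through a receptor whose signal is passed into the cell by the CD3 chains, and B cells do the same through surface immunoglobulin and the paired chains CD79A and CD79B. NK cells and cytotoxic T cells kill target cells with proteases such as granzymes, which they release from granules. In the liver these lymphocytes lie in and around the sinusoids beside Kupffer cells, the resident macrophages, while hepatocytes supply most of the RNA of the tissue.

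The markers were near the floor of what these libraries could measure. Values are given as log2(FPKM + 1), where FPKM is the number of fragments scaled to transcript length and library size, so that a value of 1 corresponds to 1 FPKM. Averaged over the 9 livers, Cd8a was lowest at 0.0425 FPKM and Ccl5 was highest at 3.2 FPKM, and the other 8 lay between 0.195 FPKM (Cd3e) and 0.892 FPKM (Cd79b). Of the 16889 genes above 0 in any liver, 15.8% had a lower mean than Cd8a, 37.2% a lower mean than Cd79a, and 56.5% a lower mean than Ccl5. Hepatocyte genes were among the most abundant in each liver, with Apoa2 at a mean of 18938 FPKM. A small RNA exceeded them in 2 livers, Rnu6 in HFD mouse 2 with a log2 value of 22.44 and Snord49a in ND mouse 9 with 14.51. HFD mouse 2 stood apart in this gene; without Rnu6 its highest log2 value was 14.40, and its median-of-ratios size factor was 1.01. The hepatocyte marker Alb was listed at 0 in all 9 livers, so a 0 may be a failed estimate and is given below as listed at 0. Because these are pieces of whole liver, fewer cells of a type and less RNA per cell cannot be told apart.

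Sequencing depth was not given, but the low values held information on it. Where a value rests on a few whole fragments, its ratio between livers depends on their depths, and the most common ratio among genes under 0.5 FPKM gave relative depths of 1 for HFD mouse 1, 1.17 for HFD mouse 2, and 1.59 for HFD mouse 3. In ND mice 6, 7, and 9 the relative depths were 1.06, 1.15, and 1.11, and PRF 50 mice 3, 9, and 10 had 0.98, 1.51, and 0.962. After scaling by depth, 9 of the 10 markers were whole multiples of a single step in all livers, within 0.25 of a step, and Ccl5 was not. The same was true of 84.6% of 91 low genes from the marker lists used here and of 1.63% of 4775 genes from 5 to 50 FPKM, where steps are too small to be seen and a match comes by chance. Counted in such steps, which are inferred and may each stand for about 1 fragment, Cd8a amounted to 4, 2, and 4 in ND mice 6, 7, and 9, to 0 in each HFD liver, and to 2, 2, and 1 in PRF 50 mice 3, 9, and 10. Cd3d amounted to 12 steps over the ND livers, 6 over the HFD livers, and 17 over the PRF 50 livers, and 12 of these 17 came from PRF 50 mouse 3. Even Cd79a, the marker with the most steps in any liver, ranged from 1 step in PRF 50 mouse 10 to 27 in ND mouse 6. Counting error alone is therefore large for the values of these 9 markers.

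**Figure D1:**
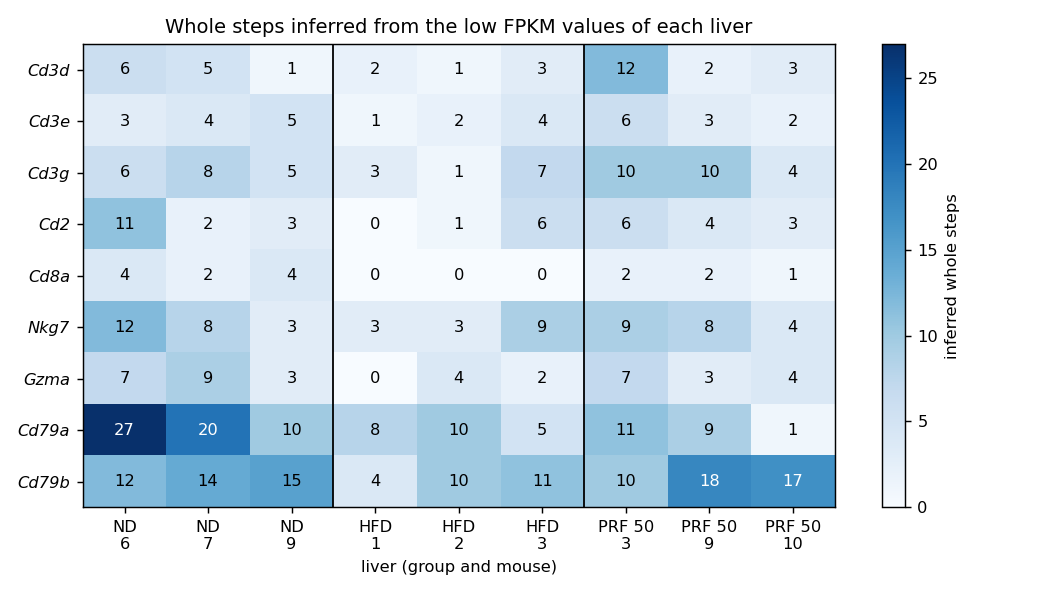
Whole steps inferred from the FPKM values of 9 markers (rows) in each liver (columns, by group and mouse number), with the color showing the number of steps. Most cells hold fewer than 15 steps, Cd8a is at 0 in the 3 HFD livers, and the highest cell is Cd79a in ND mouse 6 with 27.

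Cd3d, Cd3e, and Cd3g, which encode the delta, epsilon, and gamma chains of CD3, lie together on chromosome 9 within 40055 bases (GRCm38, GENCODE annotation). Cd3d (chr9:44981786-44987339, plus strand) and Cd3g (chr9:44969572-44980431, minus strand) point away from each other, with 1355 bases between their starts. Cd3e (chr9:44998740-45009627, minus strand) is overlapped by the antisense gene Gm48719 and by the unclassified transcript Gm48720, and whether strand was used in counting is not given in the sources used here, so its values may include fragments of these. None of the other 9 markers overlapped another annotated gene. RefSeq promoters (build GRCm38.p6, 250 bases before to 50 bases after the start) were at hand for 7 of the 10: Cd3d, Cd3e, Cd3g, Cd8a, Nkg7, Gzma, and Cd79a. Because the CD3 chains and CD79A are the signalling chains of the receptors of T and B cells, their promoters are shown here, each 5′ to 3′ on the strand of its gene: Cd3d at chr9:44981536-44981835 (plus strand), Cd3g at chr9:44980382-44980681 (minus strand), Cd3e at chr9:45009562-45009861 (minus strand), and Cd79a at chr7:24897247-24897546 (plus strand). Capitals mark the motif CAGGTG, a form of the E-box bound by E proteins, or its reverse complement CACCTG.
Cd3d: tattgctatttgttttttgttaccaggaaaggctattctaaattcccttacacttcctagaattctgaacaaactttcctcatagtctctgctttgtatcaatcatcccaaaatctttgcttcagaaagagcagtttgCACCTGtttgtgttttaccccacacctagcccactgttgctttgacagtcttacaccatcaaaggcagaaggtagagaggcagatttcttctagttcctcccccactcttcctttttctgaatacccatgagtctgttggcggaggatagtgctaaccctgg
Cd3g: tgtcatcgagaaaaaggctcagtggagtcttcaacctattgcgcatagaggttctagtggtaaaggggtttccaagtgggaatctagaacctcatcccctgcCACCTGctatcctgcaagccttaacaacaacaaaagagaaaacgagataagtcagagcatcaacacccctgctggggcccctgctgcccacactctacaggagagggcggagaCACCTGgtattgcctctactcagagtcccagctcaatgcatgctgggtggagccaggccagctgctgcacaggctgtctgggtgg
Cd3e: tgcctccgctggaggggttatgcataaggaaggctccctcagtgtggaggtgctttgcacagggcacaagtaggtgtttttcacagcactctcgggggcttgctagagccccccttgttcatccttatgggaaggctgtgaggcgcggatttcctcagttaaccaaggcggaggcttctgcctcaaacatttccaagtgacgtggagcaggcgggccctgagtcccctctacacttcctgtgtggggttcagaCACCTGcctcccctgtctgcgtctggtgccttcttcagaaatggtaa
Cd79a: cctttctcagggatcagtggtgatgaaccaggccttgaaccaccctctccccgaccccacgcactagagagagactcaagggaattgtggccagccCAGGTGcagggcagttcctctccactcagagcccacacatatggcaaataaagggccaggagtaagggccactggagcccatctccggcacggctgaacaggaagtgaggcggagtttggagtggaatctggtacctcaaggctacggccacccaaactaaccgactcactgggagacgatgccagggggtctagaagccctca
The motif occurred on either strand in 5 of the 7 promoters (Cd3d, Cd3e, Cd3g, Cd79a, and Gzma) and in 20.2% of all 32851 promoters. Its single match in Cd3d began 112 bases before the start, the matches in Cd3g began 148 and 35 bases before it, the match in Cd79a began 154 bases before it, and the match in Cd3e began at base 4 after it. It was chosen from 10 motifs after their matches had been seen. Of the other 9, AGGAAG, a core bound by ETS factors, was in 4 of the 7 promoters (Cd3d, Cd3e, Nkg7, and Cd79a) and in 35.4% of all, and TGTGGT, a core bound by RUNX factors, was in 2 (Nkg7 and Gzma) and in 16.8% of all. The others were an NF-kB type motif of GGG and CC with any 5 bases between (3 of 7 and 50.8% of all), TCACAC (1 and 14.5%), AGATAA (1 and 11.2%), CCGGAA (0 and 14.9%), CCCNNGGG (0 and 13.7%), TATAAA (0 and 13.6%), and ATTTGCAT (0 and 1.74%). A match describes these letters and no binding was measured.

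Of the T-cell genes, Cd3g, the gamma chain, had the highest level of the CD3 chains. Its log2 values were 0.65, 0.77, and 0.55 in ND mice 6, 7, and 9, 0.39, 0.12, and 0.53 in HFD mice 1, 2, and 3, and 1.02, 0.74, and 0.51 in PRF 50 mice 3, 9, and 10. The HFD livers were all below the ND livers, although HFD mouse 3 and ND mouse 9 were almost level, and PRF 50 mouse 10 fell among the HFD livers. The group means were 0.66 ± 0.11 for ND, 0.35 ± 0.21 for HFD, and 0.76 ± 0.26 for PRF 50 (SD, n = 3 each). The log2 fold change was -0.31 in HFD vs. ND (95% confidence interval -0.60 to -0.02, adjusted p = 0.336 by Benjamini-Hochberg in limma) and 0.41 in PRF 50 vs. HFD (0.04 to 0.78, adjusted p = 0.225 in limma).

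Cd3d, the delta chain, was spread more widely within the groups. It was 0.50, 0.40, and 0.09 in ND mice 6, 7, and 9, 0.20, 0.09, and 0.19 in HFD mice 1, 2, and 3, and 0.92, 0.13, and 0.30 in PRF 50 mice 3, 9, and 10. The value of PRF 50 mouse 3 was the highest of the 9, ND mouse 9 was as low as the lowest HFD liver, and the groups overlapped in every comparison. Cd3e, the epsilon chain, was 0.25, 0.30, and 0.38 in the ND livers, 0.09, 0.16, and 0.22 in the HFD livers, and 0.49, 0.18, and 0.19 in the PRF 50 livers, in the same order of mice. All HFD livers lay below all ND livers by a narrow margin, and in the PRF 50 group mouse 3 was the highest of all livers while mice 9 and 10 lay among the HFD values. The log2 fold change of Cd3e was -0.15 in HFD vs. ND (adjusted p = 0.477 in limma) and that of Cd3d was -0.17 (adjusted p = 0.572 in limma).

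Cd2 encodes an adhesion receptor of T and NK cells, and Cd8a the alpha chain of the CD8 co-receptor of cytotoxic T cells. Cd2 was 0.94, 0.21, and 0.31 in ND mice 6, 7, and 9, was listed at 0 in HFD mouse 1 with 0.11 and 0.41 in HFD mice 2 and 3, and was 0.62, 0.30, and 0.35 in PRF 50 mice 3, 9, and 10. ND mouse 6 was the highest liver, and HFD mouse 3 exceeded ND mice 7 and 9, so the groups overlapped. Cd8a was listed at 0 in HFD mice 1, 2, and 3, and was 0.15, 0.07, and 0.14 in ND mice 6, 7, and 9 and 0.08, 0.05, and 0.04 in PRF 50 mice 3, 9, and 10. Its 6 values above 0 were thus in the ND and PRF 50 livers, but each rested on 1 to 4 inferred steps. Cd8b1, the gene of the partner CD8 chain, did not share this pattern. It was listed at 0 in ND mice 6 and 9 and HFD mice 1 and 2. Its values were 0.08 in ND mouse 7, 0.06 in HFD mouse 3, and 0.10, 0.12, and 0.10 in PRF 50 mice 3, 9, and 10. Cd8a stayed under the minimum mean of 0.1 FPKM in each comparison and was not tested, and no fold change is given against a group listed at 0. With no minimum, the adjusted p of Cd8a in limma was 0.208 between HFD and ND, 0.278 between PRF 50 and HFD, and 0.543 between PRF 50 and ND.

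Of the cytotoxic markers, Nkg7 and Ccl5 had higher mean levels than any of the T-cell genes. Nkg7, a protein of cytotoxic granules, was 1.35, 0.97, and 0.46 in ND mice 6, 7, and 9, 0.50, 0.44, and 0.83 in HFD mice 1, 2, and 3, and 1.17, 0.78, and 0.65 in PRF 50 mice 3, 9, and 10. ND mouse 9 sat with HFD mice 1 and 2 at the low end, so that the ND group spanned nearly the whole range of the 9 livers. Gzma, the granule protease granzyme A, was 0.86, 0.98, and 0.42 in the ND livers, was listed at 0 in HFD mouse 1 with 0.51 and 0.21 in HFD mice 2 and 3, and was 0.91, 0.31, and 0.60 in the PRF 50 livers. The ND and PRF 50 ranges overlapped, and HFD mouse 2 lay above ND mouse 9. The log2 fold change of Gzma was -0.51 in HFD vs. ND (95% confidence interval -0.93 to -0.10, adjusted p = 0.274 in limma) and 0.37 in PRF 50 vs. HFD (-0.06 to 0.79, adjusted p = 0.343 in limma). With a pseudocount of 0.1 in place of 1 these were -1.67 and 1.31.

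Ccl5 encodes a chemokine made by activated T and NK cells, and by other cell types too, that draws T cells and monocytes. It was 1.98, 1.99, and 1.29 in ND mice 6, 7, and 9, 1.87, 1.61, and 1.79 in HFD mice 1, 2, and 3, and 3.33, 1.68, and 2.01 in PRF 50 mice 3, 9, and 10. PRF 50 mouse 3 stood above the other 8 livers, which lay close together in all 3 groups. On the linear scale PRF 50 mouse 3 had 9.08 FPKM, against 1.44 to 3.02 FPKM in the other livers. The log2 fold change was 0.58 in PRF 50 vs. HFD (adjusted p = 0.474 in limma) and 0.09 without that mouse, and it was 0.00 in HFD vs. ND (adjusted p = 0.997 in limma), with a sign that changed with the liver left out.

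The genes of the B-cell receptor chains did not run in parallel. Cd79a was 1.52, 1.19, and 0.74 in ND mice 6, 7, and 9, 0.67, 0.71, and 0.30 in HFD mice 1, 2, and 3, and 0.87, 0.52, and 0.11 in PRF 50 mice 3, 9, and 10. The ND livers were all above the HFD livers, and of the PRF 50 livers only mouse 3 exceeded the lowest ND liver, mouse 9. The group means were 1.15 ± 0.40 for ND, 0.56 ± 0.23 for HFD, and 0.50 ± 0.38 for PRF 50 (SD, n = 3 each). The log2 fold change was -0.59 in HFD vs. ND (95% confidence interval -1.07 to -0.12, adjusted p = 0.272 in limma), -0.65 in PRF 50 vs. ND (-1.21 to -0.09, adjusted p = 0.330 in limma), and -0.06 in PRF 50 vs. HFD (-0.53 to 0.41, adjusted p = 0.911 in limma). Without HFD mouse 2 or without PRF 50 mouse 10 the sign of the last changed, to 0.01 and 0.14.

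Cd79b, its partner chain, was 0.96, 1.01, and 1.09 in ND mice 6, 7, and 9, 0.42, 0.78, and 0.65 in HFD mice 1, 2, and 3, and 0.88, 0.99, and 1.31 in PRF 50 mice 3, 9, and 10. All HFD livers were below all ND livers and all PRF 50 livers, while the ND and PRF 50 groups overlapped. The group means were 1.02 ± 0.07 for ND, 0.62 ± 0.18 for HFD, and 1.06 ± 0.22 for PRF 50 (SD, n = 3 each). The log2 fold change was -0.40 in HFD vs. ND (95% confidence interval -0.68 to -0.13, adjusted p = 0.198 in limma), 0.44 in PRF 50 vs. HFD (0.10 to 0.78, adjusted p = 0.163 in limma), and 0.04 in PRF 50 vs. ND (-0.27 to 0.34, adjusted p = 0.924 in limma). The log2 value of Cd79b minus that of Cd79a was -0.57, -0.18, and 0.36 in the ND livers, -0.25, 0.07, and 0.36 in the HFD livers, and 0.02, 0.47, and 1.20 in the PRF 50 livers. PRF 50 mouse 10 was the extreme, with the highest Cd79b and the lowest Cd79a of the 9 livers.

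**Figure D2:**
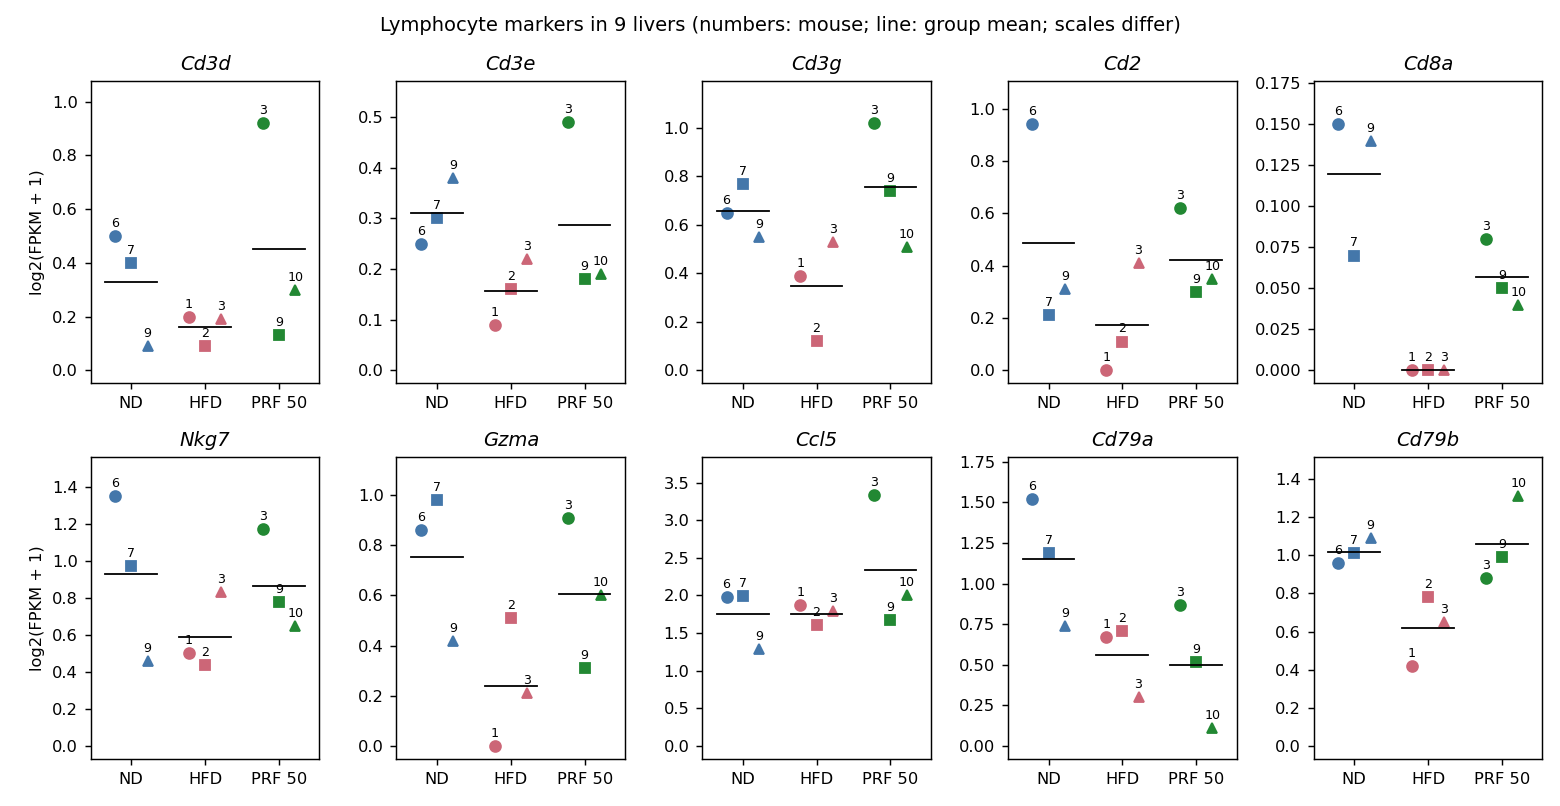
Log2(FPKM + 1) of each of the 10 markers (panels, with their own vertical scales) in each liver, with the mouse number beside the point and a line at the group mean. Cd79b is lower in the 3 HFD livers than in the other 6, Cd8a is listed at 0 in the 3 HFD livers, and PRF 50 mouse 3 is highest for Cd3d, Cd3e, Cd3g, and Ccl5.

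The comparison of the HFD with the ND group addresses the effect of the diet. Of the 9 markers tested, 8 had a lower mean in the HFD group and Ccl5 was level, with a median log2 fold change of -0.31 beside -0.005 for all genes tested. No marker passed the test: limma called 0 of 9 at a Benjamini-Hochberg adjusted p under 0.05, while it called 135 of all 13171 genes tested (1.02%). At an unadjusted p under 0.05, 4 of the 9 were lower in the HFD group (Cd3g, Gzma, Cd79a, and Cd79b) and 0 were higher, beside 6.25% of all genes tested that were lower. In 4 of the 9 (Cd3e, Cd3g, Cd79a, and Cd79b) all HFD livers lay below all ND livers, beside 9.33% of all genes tested. Counts this small moved with single mice: the 4 markers at an unadjusted p under 0.05 became 6 without ND mouse 9, 2 without HFD mouse 1 or HFD mouse 3, and 1 without ND mouse 6 or ND mouse 7, where the shares of all genes tested were 7.07%, 6.52%, 4.14%, 6.05%, and 4.57%. The 4 markers without overlap became 8 without ND mouse 9, whose Cd3d, Nkg7, Gzma, and Ccl5 were low for its group, while the share of all genes tested became 16.6%. The median was -0.18 without ND mouse 6 and -0.42 without HFD mouse 3. Genes of some other cell types also had lower means in the HFD group: of 7 sinusoidal endothelial genes, 6 had a lower mean, with a median of -0.74, 0 called by limma, and 2 at an unadjusted p under 0.05 (Oit3 and Kdr), and of 8 hepatocyte genes tested, 6 had a lower mean, with a median of -0.30, 0 called, and 3 at an unadjusted p under 0.05 (Cps1, Ass1, and Hnf4a). Lower means were also found for 6 of 7 dendritic-cell genes (median -0.14) and 3 of 4 red blood cell genes (-0.27). In both lists 0 were called and 0 had an unadjusted p under 0.05 in limma. Of these genes, Siglech and Hbb-bs passed the minimum through the ND group alone, and Xcr1 through the HFD group alone. The median of the pan-leukocyte genes was 0.00. Other lists went the other way, with 0 genes called by limma. Higher means were found for 5 of 7 stellate-cell genes (median 0.29), 6 of 7 monocyte genes (0.23), and 3 of 3 platelet genes (0.13). The endothelial genes summed to 61.8, 79.3, and 102 FPKM in ND mice 6, 7, and 9, 23.1, 53.8, and 77.8 FPKM in HFD mice 1, 2, and 3, and 59.6, 56.3, and 95.3 FPKM in PRF 50 mice 3, 9, and 10, and the groups overlapped. Their part in the values of the markers was not tested.

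The comparison of the PRF 50 with the HFD group addresses the effect of PRF in mice on the high-fat diet. Of the 9 markers tested, 8 had a higher mean in the PRF 50 group and Cd79a a slightly lower one, with a median log2 fold change of 0.29 beside 0.003 for all genes tested. Again limma called 0 of 9 at an adjusted p under 0.05, while it called 350 of all 13271 genes tested (2.64%). At an unadjusted p under 0.05, 2 of the 9 were higher in the PRF 50 group (Cd3g and Cd79b) and 0 were lower, beside 8.75% of all genes tested that were higher. In 1 of the 9 markers, Cd79b, all PRF 50 livers lay above all HFD livers, beside 11.8% of all genes tested, a share close to that of the markers. The 2 markers at an unadjusted p under 0.05 became 0 without HFD mouse 1, 1 without PRF 50 mouse 3 or PRF 50 mouse 10, 3 without HFD mouse 3, and 4 without PRF 50 mouse 9, where the shares of all genes tested were 7.87%, 7.28%, 8.79%, 6.8%, and 8.62%. After quantile normalization the count was 1. The 1 marker without overlap became 2 without HFD mouse 2 or PRF 50 mouse 10, 4 without PRF 50 mouse 9, and 5 without HFD mouse 3. Over all genes tested the share without overlap and higher in the PRF 50 group was then 16%, 17.6%, 17.4%, and 16.2%, in the same order of mice. The median over the 9 markers was 0.13 without PRF 50 mouse 3 and 0.42 without PRF 50 mouse 9.

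In the PRF 50 group compared with the ND group, the markers fell on both sides of 0, with 4 of the 9 higher, 5 lower, and a median of -0.02 beside -0.007 for all genes tested. Single mice turned the sign of this median, which was 0.10 without ND mouse 6 and ran down to -0.13 without PRF 50 mouse 3. Here limma called 0 of 9 at an adjusted p under 0.05 and 31 of all 13265 genes tested (0.234%). At an unadjusted p under 0.05, 1 of the 9 was lower in the PRF 50 group (Cd79a) and 0 were higher, beside 5.62% of all genes tested that were lower. That count became 0 without ND mouse 6, ND mouse 7, PRF 50 mouse 9, or PRF 50 mouse 10. The shares of all genes tested that were lower were then 4.41%, 4.6%, 3.96%, and 4.73%, in the same order. In 0 of the 9 did the PRF 50 livers all lie below or all lie above the ND livers, beside 9.93% of all genes tested that lay below. Without ND mouse 9 this became 1 (Cd79a, lower), without PRF 50 mouse 3 it became 2 (Cd3e and Cd79a, lower), and without PRF 50 mouse 9 it became 1 (Ccl5, higher), beside 17.8% and 14.7% of all genes tested that were lower and 13.7% that were higher. The HFD livers enter the comparisons with both other groups, so a low value there shows in each, and the values of the comparisons are not independent. Fold changes on the log2(FPKM + 1) scale understate the change of genes this low: with a pseudocount of 0.1 the median over the 9 markers was -0.86 in HFD vs. ND, 0.92 in PRF 50 vs. HFD, and -0.05 in PRF 50 vs. ND.

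**Figure D3:**
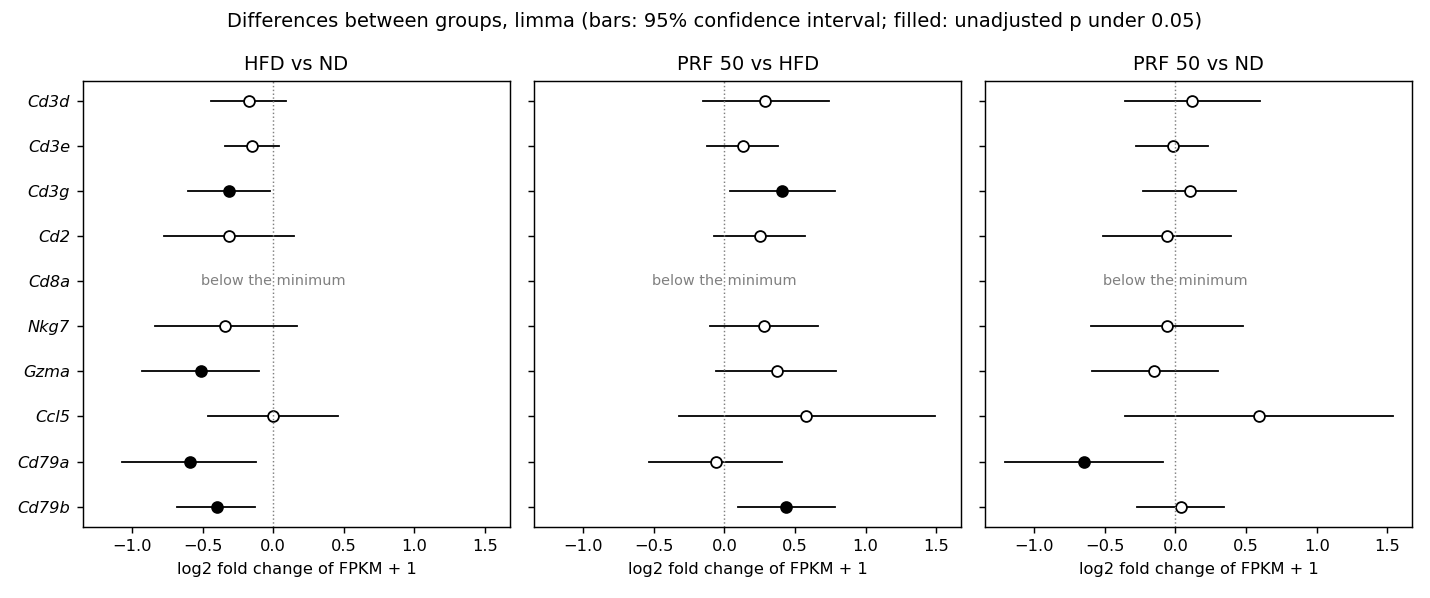
Log2 fold change of FPKM + 1 for each marker in the 3 comparisons, with 95% confidence intervals from limma and filled points for an unadjusted p under 0.05. Most intervals cross 0, Cd8a was under the minimum, and the intervals of Ccl5 in the comparisons with PRF 50 are the widest.

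Seen by liver, the markers tended to be high or low together. PRF 50 mouse 3 had the highest value of 4 markers (Cd3d, Cd3e, Cd3g, and Ccl5) and ND mouse 6 of 4 others (Cd2, Cd8a, Nkg7, and Cd79a), while ND mouse 7 was highest for Gzma and PRF 50 mouse 10 for Cd79b. HFD mouse 1 was lowest or tied for lowest in 5 and listed at 0 in 3 (Cd2, Cd8a, and Gzma), and HFD mouse 2 was lowest or tied in 4. Over the 45 pairs of markers, Pearson's r across the 9 livers had a median of 0.55 and was above 0 for 43 pairs. The highest was 0.95, between Cd3d and Ccl5, both of them high in PRF 50 mouse 3, and the lowest was -0.04, between Cd79a and Cd79b. These correlations describe 9 livers that share groups, libraries, and small counts.

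Summed by cell type in FPKM, the 5 T-cell genes came to 2.2, 1.47, and 1.17 in ND mice 6, 7, and 9, 0.521, 0.341, and 1.08 in HFD mice 1, 2, and 3, and 2.92, 1.17, and 1.1 in PRF 50 mice 3, 9, and 10. All HFD livers were below the others, but HFD mouse 3 was almost level with PRF 50 mouse 10. Cd79a and Cd79b together came to 2.82, 2.3, and 1.8 in the ND livers, 0.926, 1.35, and 0.805 in the HFD livers, and 1.67, 1.42, and 1.55 in the PRF 50 livers. In this sum the groups followed each other without overlap, ND highest, PRF 50 between, and HFD lowest, with small gaps between neighbours. Nkg7, Gzma, and Ccl5 together came to 5.3, 4.92, and 2.16 in the ND livers, 3.08, 2.83, and 3.38 in the HFD livers, and 11.2, 3.17, and 4.11 in the PRF 50 livers. Most of this sum was Ccl5, and the groups overlapped.

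By likeness across the 9 livers, among 10047 other genes whose mean reached 1 FPKM, the mean of Cd3d, Cd3e, Cd3g, and Cd2 was closest to Sars2 (Pearson's r = 0.97), Zfp950 (0.97), Jarid2 (0.95), Cdk9 (0.94), and Arpc4 (0.94). The mean of Cd79a and Cd79b was closest to Trip6 (r = 0.96), Ostc (0.95), Shf (0.95), and Bhlhe41 (0.94), among the genes reported here. None of these 9 is in the lymphocyte lists, and with 10047 genes and 9 livers, high values of r are found in any direction.

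Wider lists of lymphocyte genes, which include the markers, gave the following. Of 31 genes of the T-cell receptor and its signalling, 28 were in the tables and 15 were tested in HFD vs. ND, with 13 lower, a median of -0.16, and 0 called by limma. At an unadjusted p under 0.05 2 were lower (Cd3g and Cd4), beside 6.25% of all genes tested. In PRF 50 vs. HFD 13 of 15 were higher, with a median of 0.20 and 0 called. At an unadjusted p under 0.05 2 were higher (again Cd3g and Cd4), beside 8.75% of all genes tested. The most abundant gene of this list was the T-cell kinase Zap70, with a mean of 7.38 FPKM, far above the CD3 chains that it binds. It varied little, with log2 values of 3.02 ± 0.08 for ND, 3.01 ± 0.25 for HFD, and 3.15 ± 0.18 for PRF 50 (SD, n = 3 each). Cd4, the co-receptor of helper T cells, was singled out after its values were seen. It was 0.62, 0.63, and 0.47 in ND mice 6, 7, and 9, 0.42, 0.20, and 0.12 in HFD mice 1, 2, and 3, and 1.24, 0.69, and 0.87 in PRF 50 mice 3, 9, and 10, so that the groups did not overlap in any comparison. Its log2 fold change was -0.32 in HFD vs. ND (adjusted p = 0.251 in limma), 0.69 in PRF 50 vs. HFD (adjusted p = 0.0683), and 0.36 in PRF 50 vs. ND (adjusted p = 0.371).

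Of 22 NK and cytotoxic genes, 13 were tested in HFD vs. ND, with 10 lower, a median of -0.10, and 0 called by limma (1 lower at an unadjusted p under 0.05, Gzma, beside 6.25% of all genes tested), and 12 in PRF 50 vs. HFD, with 12 higher and a median of 0.20. Of these, 4 of the 13 (Gzmb, Klrb1c, Klrc1, and Cd160) and 3 of the 12 (Gzmb, Klrb1c, and Klrc1) averaged under 0.1 FPKM in the HFD group and passed the minimum through the other group alone, so their direction was fixed by the minimum. The same held for 1 of the 15 T-cell genes, Cd247, in both comparisons. Serpinb9, an inhibitor of granzyme B, was the most abundant, at 4.65 FPKM. A single gene of the 4 lymphocyte lists passed the test, Gzmb, which encodes granzyme B. It was 0.33 and 0.50 in ND mice 6 and 7 and listed at 0 in ND mouse 9, was listed at 0 in HFD mouse 1 with 0.16 and 0.12 in HFD mice 2 and 3, and was 0.57, 0.54, and 0.44 in PRF 50 mice 3, 9, and 10. The PRF 50 livers were thus all above the HFD livers, and overlapped with the ND livers. With a mean of 0.0675 FPKM in the HFD group and 0.429 FPKM in the PRF 50 group, Gzmb passed the minimum through the PRF 50 group alone. Its log2 fold change was 0.42 in PRF 50 vs. HFD (95% confidence interval 0.23 to 0.62, adjusted p = 0.0495 in limma), and the call was lost on leaving out any of the 6 mice: the adjusted p was 0.11 without HFD mouse 1, 0.124 without HFD mouse 2, 0.147 without HFD mouse 3, 0.126 without PRF 50 mouse 3, 0.108 without PRF 50 mouse 9, and 0.0805 without PRF 50 mouse 10, while the log2 fold change stayed between 0.38 and 0.46. The adjusted p in limma was also 0.102 with all 9 mice in 1 fit, 0.0633 with a pseudocount of 0.1, 0.0681 after quantile normalization, and 0.0613 without the trend, and the call held at 0.045 with no minimum and at 0.0499 with median-of-ratios scaling.

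Of 22 B-cell genes, 18 were in the tables, and 13 were tested in HFD vs. ND, with 11 lower, a median of -0.18, and 0 called by limma. Beside 6.25% of all genes tested, 5 of the 13 were lower at an unadjusted p under 0.05 (Cd79a, Cd79b, Ms4a1, Blk, and Fcrla). The last 3, named because they passed that threshold, encode the surface protein CD20, a kinase of the B-cell receptor, and an intracellular Fc receptor-like protein. Ms4a1 and Blk averaged under 0.1 FPKM in the HFD group and were tested because of their ND values, as were 3 others of the 13 (Fcer2a, Spib, and Pou2af1), so these 5 had to be lower in the HFD group and their part in the counts and the median follows from the minimum. Ms4a1 was 0.37, 0.59, and 0.26 in ND mice 6, 7, and 9, was listed at 0 in HFD mouse 1 with 0.20 and 0.04 in HFD mice 2 and 3, and was 0.12, 0.04, and 0.19 in PRF 50 mice 3, 9, and 10. Blk was 0.14, 0.43, and 0.33 in the ND livers, was listed at 0 in each HFD liver, and was 0.10, 0.07, and 0.05 in the PRF 50 livers. For Ms4a1 and Blk no HFD liver and no PRF 50 liver reached the ND range, but other genes of the list were higher in the PRF 50 group. Cd72, a B-cell surface protein also found on other cells, was the most abundant of the list at 2.08 FPKM, with overlapping values in the ND and HFD livers (1.26 to 1.67) and 1.66 to 2.11 in the PRF 50 livers. In PRF 50 vs. ND, 14 B-cell genes were tested, of which 6 were higher and 8 lower, with a median of -0.06 (0.04 over 11 genes with all 9 mice in 1 fit), beside medians of 0.01 for the T-cell list (-0.04 after quantile normalization) and 0.07 for the NK and cytotoxic list. Here limma called 0 of the 14, and at an unadjusted p under 0.05 4 were lower (Cd79a, Ms4a1, Blk, and Fcrla) and 4 were higher (Cd72, Bank1, Cd37, and Blnk), the latter all without overlap between the groups. Over all genes tested, 5.62% were lower and 6.94% were higher at that threshold, and 9.54% were higher without overlap. Of the 4 lower genes, Ms4a1, Blk, and Fcrla passed the minimum through the ND group alone. So did Fcer2a and Pou2af1 among the 8 with lower means. These 5 had to be lower in the PRF 50 group, and their part in the counts and the median follows from the minimum. In the T-cell and NK lists of this comparison, Sh2d1a and Cd160 passed the minimum through the ND group alone and had to be lower. Il7r and Ncr1 passed it through the PRF 50 group alone and had to be higher. Of 8 B-cell genes tested in PRF 50 vs. HFD, 7 were higher, with a median of 0.32 and 0 called by limma. At an unadjusted p under 0.05 4 were higher (Cd79b, Cd72, Bank1, and Cd37), beside 8.75% of all genes tested. Of the 8, Spib averaged under 0.1 FPKM in the HFD group and passed the minimum through the PRF 50 group alone. Its direction was therefore fixed by the minimum. Genes of the list that were low in both of these groups, Ms4a1 and Blk among them, were under the minimum there, and the median was 0.19 over 11 genes with all 9 mice in 1 fit and 0.07 over 17 genes with no minimum. Pax5, the defining transcription factor of B cells, was listed at 0 in 8 of 9 livers.

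Of 8 plasma-cell genes, 4 were in the tables, among them Derl3 as the most abundant at 2.08 FPKM, and 2 were tested in HFD vs. ND, with a median of 0.66, and 3 in each of the other comparisons, with medians of 0.14 and 0.49. In PRF 50 vs. ND, Mzb1 was listed at 0 in each ND liver and passed the minimum through the PRF 50 group alone. It therefore had to be higher in that comparison. In HFD vs. ND it was under the minimum, with 0.31, 0.27, and 0.20 in HFD mice 1, 2, and 3. With no minimum it had an unadjusted p under 0.05 in limma, with its direction fixed by the 0 values. With the minimum, 1 gene was higher at that threshold in HFD vs. ND (Derl3), beside 7.36% of all genes tested. The number was 1 in PRF 50 vs. HFD (Jchain) and 2 in PRF 50 vs. ND (Jchain and Mzb1), beside 8.75% and 6.94%. The 2 genes behind the median of 0.66 went apart, with log2 fold changes of 1.41 for Derl3 (adjusted p = 0.309 in limma) and -0.08 for Jchain, which encodes the joining chain of secreted immunoglobulin (adjusted p = 0.774). Their log2 fold changes in PRF 50 vs. HFD were -0.92 for Derl3 (adjusted p = 0.457 in limma) and 1.09 for Jchain (adjusted p = 0.0547), with all PRF 50 livers above all HFD livers for Jchain. The list of lymphocyte chemokines and receptors held 15 genes. Its most abundant gene, at 12 FPKM and far above the CD3 chains, was S1pr1, which encodes an egress receptor and not a chemokine receptor. Of the 15 genes, 13 were tested in HFD vs. ND, with a median of 0.05, 0 called by limma, and 0 at an unadjusted p under 0.05. That median was -0.03 without ND mouse 9 and 0.12 without ND mouse 7. Without ND mouse 6, 1 gene was higher and 3 were lower at an unadjusted p under 0.05. The shares of all genes tested were then 7.74% higher and 6.05% lower. Of 14 tested in PRF 50 vs. HFD 10 were higher, with a median of 0.17 (0.07 without PRF 50 mouse 3 and 0.41 without PRF 50 mouse 9). Of these 14, 1 was called by limma, beside 2.64% of all genes tested, and 4 were higher at an unadjusted p under 0.05, beside 8.75%. The number called in this list was 0 without any 1 of the 6 mice, with no minimum, with a pseudocount of 0.1, and after quantile normalization. Of the 14, Cxcr3 averaged under 0.1 FPKM in the HFD group and passed the minimum through the PRF 50 group alone. It is 1 of the 4 genes at an unadjusted p under 0.05, and its direction was fixed by the minimum. The minimum and the pseudocount both moved the medians of the lymphocyte lists. With no minimum the medians of the T-cell, NK, and B-cell lists were -0.10, -0.05, and -0.13 in HFD vs. ND, over 28, 22, and 18 genes, and 0.13, 0.09, and 0.07 in PRF 50 vs. HFD, over 28, 22, and 17 genes. With a pseudocount of 0.1 in place of 1 they were -0.61, -0.37, and -0.73 in HFD vs. ND and 0.73, 0.66, and 0.73 in PRF 50 vs. HFD. In PRF 50 vs. ND they were 0.15, 0.30, and -0.46 with that pseudocount. The B-cell median in PRF 50 vs. ND was 0.43 over 4 genes with a minimum of 1 FPKM. The genes at an unadjusted p under 0.05 with no minimum were 8, 1, and 11 in HFD vs. ND, all lower, beside 5.42% of all genes, and 9, 4, and 5 in PRF 50 vs. HFD, all higher, beside 7.72% of all genes. On leaving out a mouse the medians of the T-cell, NK, and B-cell lists ranged from -0.21 to -0.10, -0.12 to -0.07, and -0.20 to -0.13 in HFD vs. ND, and from 0.15 to 0.25, 0.17 to 0.24, and 0.21 to 0.38 in PRF 50 vs. HFD. The ranges in PRF 50 vs. ND were -0.04 to 0.09, 0.04 to 0.14, and -0.17 to 0.01.

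**Figure D4:**
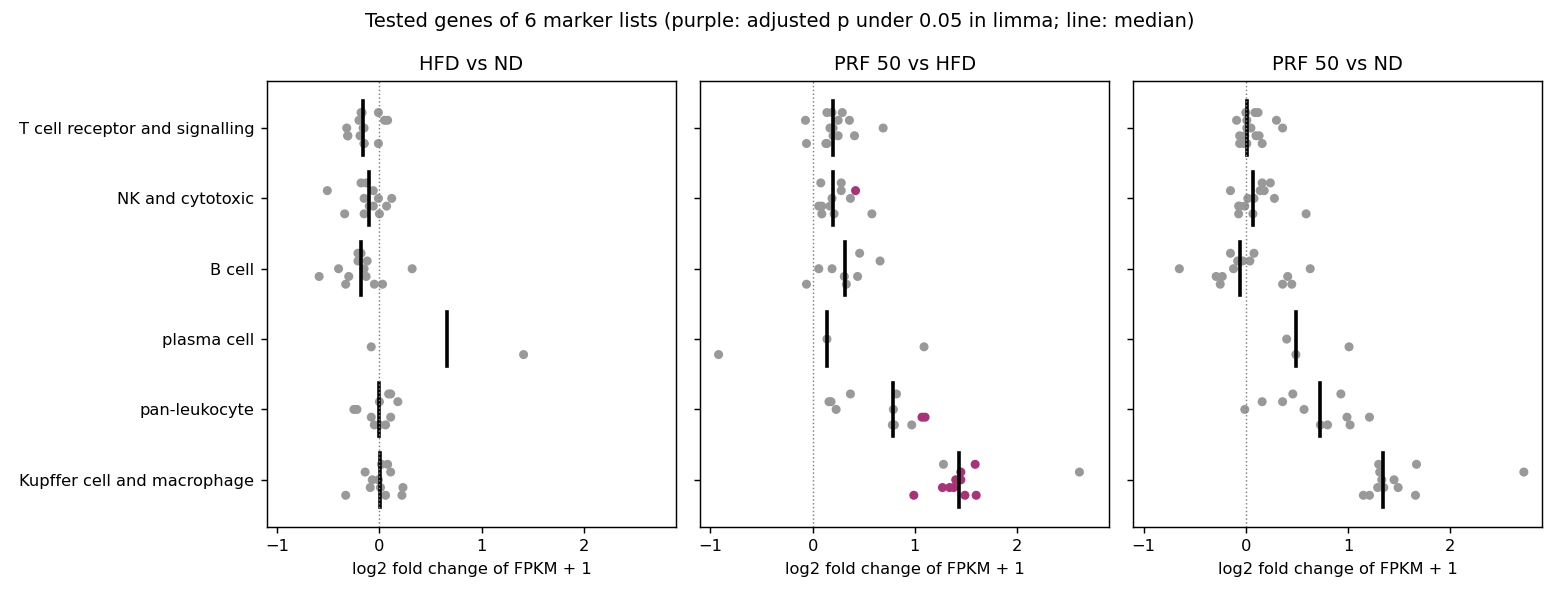
Log2 fold change of FPKM + 1 of each tested gene (points) of 6 marker lists in the 3 comparisons, with the median as a black line and genes with an adjusted p under 0.05 in limma in purple. In PRF 50 vs. HFD the medians of the T-cell, NK, and B-cell lists are 0.20, 0.20, and 0.32, beside 0.79 for pan-leukocyte genes and 1.43 for Kupffer-cell genes; they become 0.13, 0.09, 0.07, 0.79, and 1.43 with no minimum, and 0.73, 0.66, 0.73, 1.09, and 1.49 with a pseudocount of 0.1.

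Of the lists of other leukocytes, that of Kupffer cells and macrophages had the highest median log2 fold change in both comparisons with the PRF 50 group. The 12 Kupffer-cell and macrophage genes summed to 107, 193, and 242 FPKM in ND mice 6, 7, and 9, 128, 196, and 202 FPKM in HFD mice 1, 2, and 3, and 675, 420, and 428 FPKM in PRF 50 mice 3, 9, and 10, with Cd5l, a secreted macrophage protein, as the most abundant and none listed at 0 throughout. All PRF 50 livers were far above all others. In PRF 50 vs. HFD, 10 of the 12 rose (adjusted p under 0.05 in limma), beside 2.64% of all genes tested that were called, with a median log2 fold change of 1.43. The number called was 7 with all 9 mice in 1 fit and 2 with no minimum, where 0.762% of all genes were called, while all 12 had an unadjusted p under 0.05 in both. In HFD vs. ND 0 of the 12 were called, 0 had an unadjusted p under 0.05, and the median was 0.01 (-0.29 without ND mouse 6). The 5 with the smallest p in PRF 50 vs. HFD were Timd4 (log2 fold change 1.49), Vsig4 (1.27), C1qb (1.45), Cd68 (0.99), and C1qc (1.45). On leaving out a mouse, the number called in PRF 50 vs. HFD was 5 without HFD mouse 1, 0 without HFD mouse 2 or HFD mouse 3, and 1, 7, and 3 without PRF 50 mice 3, 9, and 10, beside 1.28%, 0.158%, 0.0978%, 0.295%, 1.4%, and 0.95% of all genes, while the median stayed between 1.22 and 1.55. In PRF 50 vs. ND limma called 0 of the 12, beside 0.234% of all genes tested. At an unadjusted p under 0.05 12 were higher, beside 6.94% of all genes tested. With all 9 mice in 1 fit limma called 3, beside 0.95% of all genes tested. Of 7 monocyte, 6 dendritic-cell, and 6 neutrophil genes tested in PRF 50 vs. HFD limma called 0. At an unadjusted p under 0.05 2, 1, and 2 were higher, beside 8.75% of all genes tested. Whether macrophage RNA had a part in the values of the markers was not tested.

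The 11 pan-leukocyte genes found of 12 summed to 39.1, 47.8, and 51.6 FPKM in ND mice 6, 7, and 9, 36.8, 43.9, and 48.4 FPKM in HFD mice 1, 2, and 3, and 92.3, 58.8, and 59.6 FPKM in PRF 50 mice 3, 9, and 10, with Lcp1 as the most abundant. The PRF 50 livers were the highest, the median in PRF 50 vs. HFD was 0.79 (0.50 without PRF 50 mouse 3), and Laptm5 (log2 fold change 1.10, adjusted p = 0.042 in limma) and Cd53 (1.07, adjusted p = 0.0459) rose in PRF 50 vs. HFD. The call of Laptm5 was lost without any of the 6 mice (adjusted p in limma from 0.051 without PRF 50 mouse 10 to 0.118 without HFD mouse 3), and that of Cd53 held only without PRF 50 mouse 9 (0.0489; 0.091 to 0.135 without each of the others). With no minimum both calls were lost (adjusted p = 0.0787 and 0.0825 in limma), and quantile normalization ended that of Cd53 (0.0556). Relative to Ptprc, which encodes the leukocyte protein CD45 that macrophages carry as well, Cd79a and Cd79b together were 329%, 230%, and 167% in the ND livers, 113%, 104%, and 59.9% in the HFD livers, and 42.8%, 62.9%, and 65.9% in the PRF 50 livers, on the FPKM scale. The 3 CD3 chains were 138%, 126%, and 76.9% of Ptprc in the ND livers, 63.4%, 20.6%, and 55.9% in the HFD livers, and 59.8%, 39.6%, and 33.6% in the PRF 50 livers. For the CD79 pair and the CD3 chains the ND livers thus held the most per unit of Ptprc, and the HFD and PRF 50 livers overlapped. Nkg7, Gzma, and Ccl5 together were 620%, 490%, and 200% of Ptprc in the ND livers, 375%, 219%, and 251% in the HFD livers, and 288%, 140%, and 174% in the PRF 50 livers, with ND mouse 9 below all HFD livers. Over all 10 markers ND mouse 9, at 475%, was below HFD mouse 1, at 551%.

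PRF 50 mouse 3, which carried the highest CD3 and Ccl5 values, also had the highest sums of the Kupffer-cell, pan-leukocyte, and neutrophil lists. The 8 neutrophil genes, led by S100a8, summed to 57.4 FPKM in this liver, 19.8 FPKM in PRF 50 mouse 9, 3.61 FPKM in PRF 50 mouse 10, and 2.73 to 9.29 FPKM in the ND and HFD livers. Of the red blood cell list, 6 of 7 genes were in the tables, led by Hba-a1, and they summed to 228, 147, and 132 FPKM in the ND livers, 110, 128, and 209 FPKM in the HFD livers, and 163, 189, and 158 FPKM in the PRF 50 livers. Within this list Hba-a2 was 41 FPKM in ND mouse 9 and 24 FPKM in HFD mouse 1, and at most 0.0211 FPKM in the other livers. Hbb-bs was 10 FPKM in ND mouse 6 and 7.12 FPKM in PRF 50 mouse 9, and at most 0.122 FPKM in the other livers. Such low values may be failed estimates, as for Alb, so the sums are a limited measure of blood-borne RNA. The sums overlapped between the groups. ND mouse 6, the liver with the highest Cd2, Cd8a, Nkg7, and Cd79a, had the highest of them, and HFD mouse 1, the lowest in 5 markers, had the lowest. The order differed in other livers: HFD mouse 3 had the next highest, with a sum of all 10 markers of 5.26 FPKM, while PRF 50 mouse 3, with the highest such sum at 15.8 FPKM, was exceeded by 3 livers. HFD mouse 1 was also low in the 7 sinusoidal endothelial genes, led by Clec4g, at 23.1 FPKM against 53.8 to 102 FPKM in the other 8 livers. The part of these other cells in the differences of the markers between livers was not tested.

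**Figure D5:**
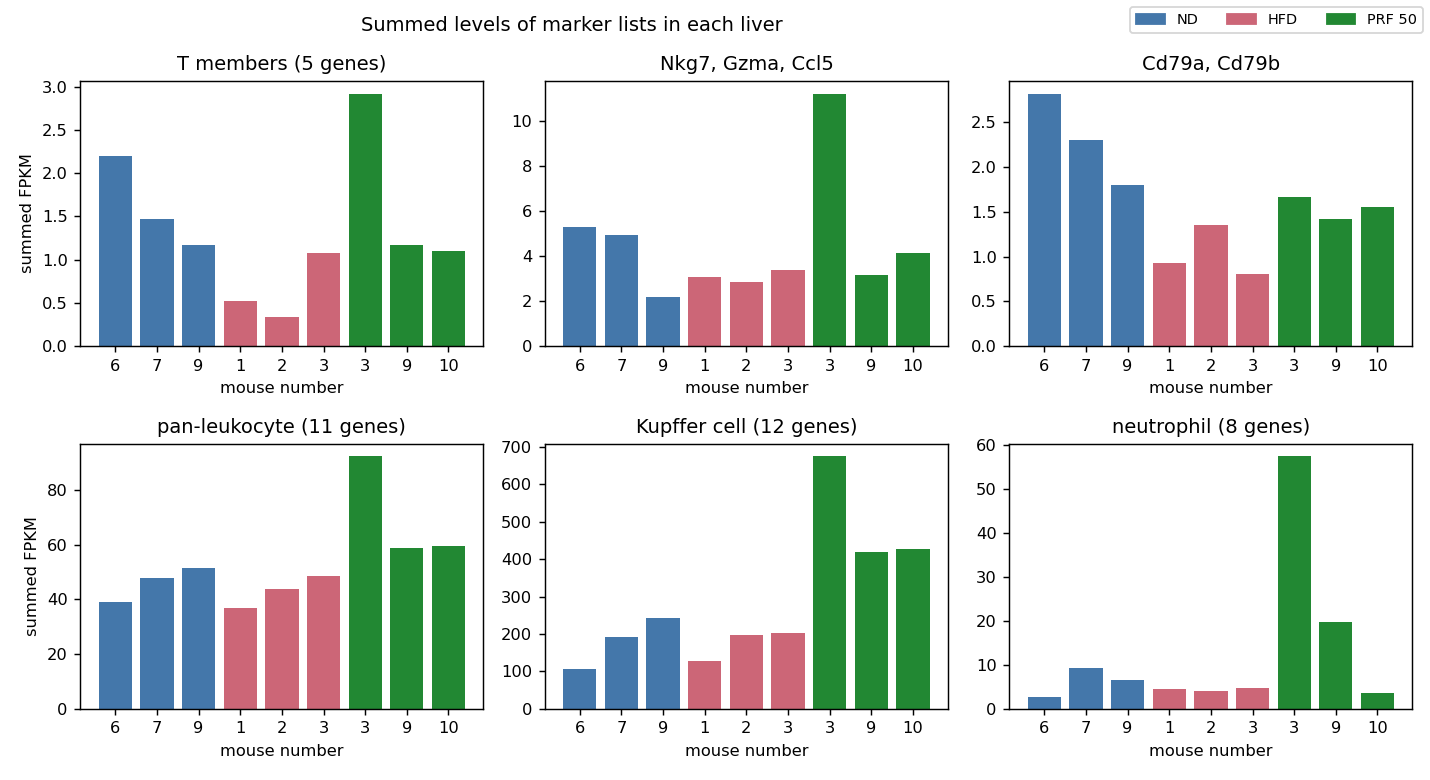
Summed FPKM of 3 groups of the markers (top) and of 3 lists of other leukocytes (bottom) in each liver, with bars from 0 and colors by group. The Kupffer-cell sums are 420 to 675 in the PRF 50 livers and 107 to 242 in the others, while the sums of Cd79a and Cd79b are highest in the ND livers.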

How the data were processed

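Reads were mapped by the authors with TopHat to mm10, per the submitters' processing notes, and FPKM were normalized between samples. The deposited values are 1 log2 value per gene and mouse, read here as log2(FPKM + 1), and no other values were used. The pseudocount of 1 was inferred from a lowest value of 0 and from the whole steps among low values. All 9 mice entered. A linear model (lmFit, then eBayes with trend) was fitted in limma 3.58.1 under R 4.3.3 to the 6 mice of each comparison, for genes averaging 0.1 FPKM or more in these mice, with Benjamini-Hochberg adjustment over all genes tested. P-values reflect the spread between these mice. An exact two-sided permutation test of 3 mice against 3 cannot go below 0.1 and was not used. The members and lists were chosen with earlier results of these data known. Named from each list were its most abundant gene, defining markers at 0, and up to 5 genes with an adjusted p under 0.05, and others where stated; 2 genes that these rules select are not reported here. Alternatives were all 9 mice in 1 fit, a pseudocount of 0.1, a minimum of 1 FPKM or none, median-of-ratios scaling, quantile normalization, no trend, and leaving out each mouse.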

Additional observations from a re-analysis of the deposited data

How the results depend on the processing

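No marker was called by limma at an adjusted p under 0.05 in any of the 3 comparisons under any alternative tried. Of the 328 alternative values of the log2 fold changes of the markers, 310 kept their direction, and 18 changed it. Quantile normalization gave -0.01 for Ccl5 in HFD vs. ND and -0.05 for Cd79b in PRF 50 vs. ND. On leaving out 1 mouse at a time, Ccl5 ranged from -0.23 to 0.12 in HFD vs. ND, and Cd79a from -0.24 to 0.14 in PRF 50 vs. HFD. In PRF 50 vs. ND the ranges were -0.12 to 0.28 for Cd3d, -0.13 to 0.03 for Cd3e, -0.03 to 0.22 for Cd3g, -0.20 to 0.17 for Cd2, -0.29 to 0.15 for Nkg7, and -0.08 to 0.13 for Cd79b.

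The number of markers without overlap ranged from 4 to 8 in HFD vs. ND, from 1 to 5 in PRF 50 vs. HFD, and from 0 to 2 in PRF 50 vs. ND on leaving out a mouse, since fewer livers overlap less often. With a minimum of 1 FPKM it was 0 in HFD vs. ND and 0 in PRF 50 vs. HFD, because 1 marker was left to test, and with no minimum it was 2 in PRF 50 vs. HFD, because Cd8a was added. With a minimum of 1 FPKM, 10% of all genes tested were lower without overlap in HFD vs. ND. In PRF 50 vs. HFD the shares higher without overlap were 10.9% with that minimum and 10.4% with none. The number of called genes in the 4 wider lymphocyte lists in PRF 50 vs. HFD was 2 with all 9 mice in 1 fit, where Cd4 and Jchain were called and Gzmb was not, 1 with a pseudocount of 0.1, where it was Jchain in place of Gzmb, and 0 with a minimum of 1 FPKM, quantile normalization, or no trend, and the cause was not tested. It ranged from 0 to 1 without single mice in PRF 50 vs. HFD and from 0 to 1 in PRF 50 vs. ND, and the 1 was Jchain, without PRF 50 mouse 10, in both. Of the 181 alternative values of the other called genes, 91 lost the call. No paired analysis was possible because mouse numbers name an animal within its group only. Depth limits each low value, since most rest on few inferred fragments.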
